A study of Mus musculus with 8 samples.

Results

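The genes described here had many reads in both RNA-seq libraries of normal TM3 cells and next to none in both libraries of TM3 cells exposed to bisphenol A (BPA). A gene was a member when it had at least 300 reads in each normal library and 10 or fewer in each BPA library. Of the 12404 genes in the count table, 164 met both limits. Map1lc3b, Ulk2, Rb1cc1 and Ythdf2 were left out of these by name, as was Dusp6, which did not meet the limits, and 160 members remained. All 160 could be given a symbol. The read counts that chose the members are given as a description, and no test of BPA against normal is drawn from them.

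TM3 is an established mouse Leydig cell line, and BPA is a building block of plastics with estrogen-like activity. The labels name 4 groups of 2 libraries each, which are RNA-seq and m6A immunoprecipitation (MeRIP) of normal and of BPA-exposed cells. No dose, exposure time or vehicle is given in the labels used here, and nothing says whether the 2 libraries of a group came from separate cultures. The count table holds the 4 RNA-seq libraries, and a second table holds 3331 peaks that the authors listed as differential, with the 2 libraries of each group pooled into 1 value. Star, Cyp11a1, Cyp17a1 and Hsd3b1, which define steroidogenic Leydig cells, were not among the rows of the count table and are not analysed here.

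N6-methyladenosine (m6A) is a methyl mark that a writer complex built around METTL3 and METTL14 places on messenger RNA. Reader proteins of the YTH family bind it and affect splicing, translation and decay of the RNA. In MeRIP, fragments with the mark are enriched by an antibody, and RNA kept aside before that step, the input, is sequenced beside it. The input and the immunoprecipitate (IP) are separate libraries, so a gene missing from the input can be looked for in the IP.

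The members had 301 to 1957 reads in normal replicate 1 (median 546.5) and 301 to 1461 in normal replicate 2 (median 426.5). In both BPA libraries they had 0 to 10 reads, with a median of 1. Summed over the 160 genes this came to 102417 and 77925 normal reads against 267 and 171 in BPA. Of the members, 77 were at 0 reads in BPA replicate 1 and 78 in BPA replicate 2. In 54 members both BPA libraries were at 0, in 47 exactly 1 of them was, and 59 had reads in both. Against a floor of 3 counts over the BPA pair, the 54 genes at 0 were at least 158-fold to at least 668-fold lower in BPA by counting error alone (median of the bounds 233.5). These bounds leave out the spread between libraries. That they are large follows from the limits and from taking genes at 0, so they are no support for a change. Fewer cells with a transcript and less of it per cell cannot be told apart in bulk RNA.

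**Figure D1:**
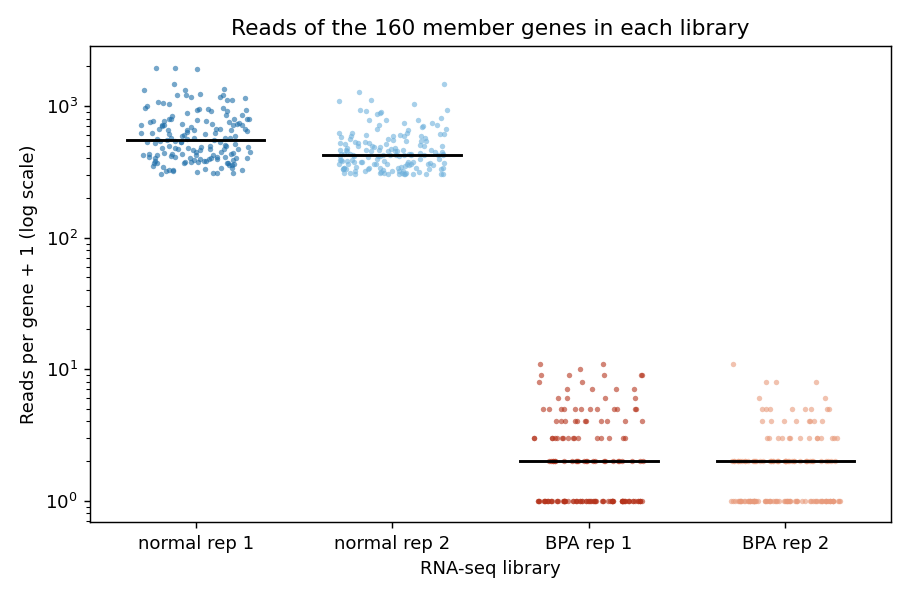
Reads per gene plus 1 on a log scale for the 160 members in each of the 4 RNA-seq libraries, 1 point per gene, with a bar at the median. By the choice of members all points lie at 301 or more in the normal libraries and at 10 or fewer reads in the BPA libraries.

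Several genes with the most reads in normal cells had none or almost none in BPA. BC005624, a gene with no descriptive name, had 1899 and 877 normal reads against none in BPA, at least 668-fold lower. Daam1, a formin that assembles actin filaments downstream of Wnt signals, had 1457 and 460 reads against 0 and 0. Ptpn21, a tyrosine phosphatase gene, had 1178 and 587 against 0 and 0. That the normal and BPA counts of these genes do not overlap follows from the rule. Stk3, which encodes the Hippo pathway kinase MST2, had 1148 and 1037 normal reads against 2 and 1 in BPA. The pooled BPA to normal ratio of Stk3 was 0.0019, with an exact 95% counting interval of 0.000392 to 0.00557. A low ratio is what the rule asks for. Rab11b, a GTPase of recycling endosomes, had 1205 and 661 reads against 1 and 0, and Mtch2, an outer mitochondrial membrane protein gene, had 885 and 1108 against 10 and 7.

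The other genes with the most normal reads covered several cell functions. Ccdc14, a centriolar satellite gene, had 667 and 1461 normal reads against 4 and 0 in BPA. Zmpste24, the protease that matures prelamin A, had 1957 and 540 against 3 and 5, and Slc37a3, a solute carrier gene, had 1957 and 479 against 2 and 3. For these genes 1 normal library held most of the reads. Nhsl1, a regulator of cell migration, had 1114 and 902 against 1 and 0, Tmem50b 1221 and 816 against 0 and 1, and Ubap2 1102 and 718 against 2 and 1. Runx1t1, a transcriptional corepressor gene, had 490 and 1272 against 8 and 0, and Tbl2 1353 and 592 against 0 and 4. Mrpl24, of the large subunit of the mitochondrial ribosome, had 1223 and 662 against 4 and 4, and Nme1, a nucleoside diphosphate kinase gene, had 1315 and 663 against 4 and 1. Scaled to library size the fold between the normal libraries had a median of 1.35 over the members and reached 4.24, beside a median of 1.42 in the other genes with at least 300 reads in both normal libraries.

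Members were a small part of the genes with that many reads in normal cells, and nearly all came from the lower end. Of 3822 such genes, 160 (4.19%) met the BPA limit. Of the 639 genes whose lower normal count was 300 to under 400, 81 (12.7%) were members. The share was 8.94% from 400 to under 500, 3.50% from 500 to under 700 and 1.36% from 700 to under 1000. Only Stk3 was a member among the 793 genes from 1000 to under 2000, and none of the 619 genes above was. The lower normal count was under 500 in 80% of the members and in 28.3% of the other genes.

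**Figure D2:**
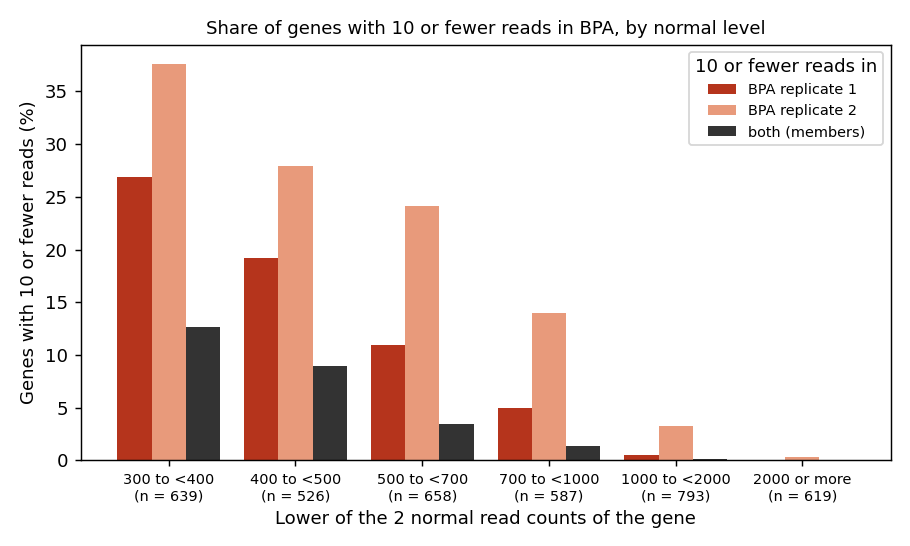
Bars give the percentage of genes with 10 or fewer reads in BPA replicate 1, in BPA replicate 2 and in both, in bins of the lower of the 2 normal read counts, with the number of genes under each bin. The share in both falls from 12.7% in the lowest bin to 0 of 619 genes in the highest.

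With each BPA library taken by itself, many more genes were at 10 or fewer reads. There were 378 such genes in BPA replicate 1 (9.89% of the 3822) and 656 in BPA replicate 2 (17.2%), so the members made up 42.3% of the first list and 24.4% of the second. Of the genes low in BPA replicate 1, 118 had at least 300 reads in BPA replicate 2, and of those low in BPA replicate 2, 405 had at least 300 in BPA replicate 1. In BPA replicate 1, 91 genes had 11 to 50 reads and 313 had more than 50 but under 300. In BPA replicate 2, 74 genes had 11 to 50 reads and 639 had more than 50 but under 300. In the opposite direction, 8 of 2481 genes (0.322%) with at least 300 reads in both BPA libraries had 10 or fewer in both normal libraries. Over the whole table, replicates of 1 condition also differed this way. The normal pair had 230 genes with at least 300 reads in replicate 1 and 10 or fewer in replicate 2, and 127 the other way round. The BPA pair had 1323 and 553. The libraries held 10455643 and 7517482 normal reads against 8813870 and 6305121 in BPA, with 2877, 2207, 4086 and 4676 genes at 0 reads in that order. The part of this sparseness in the membership was not tested.

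**Figure D3:**
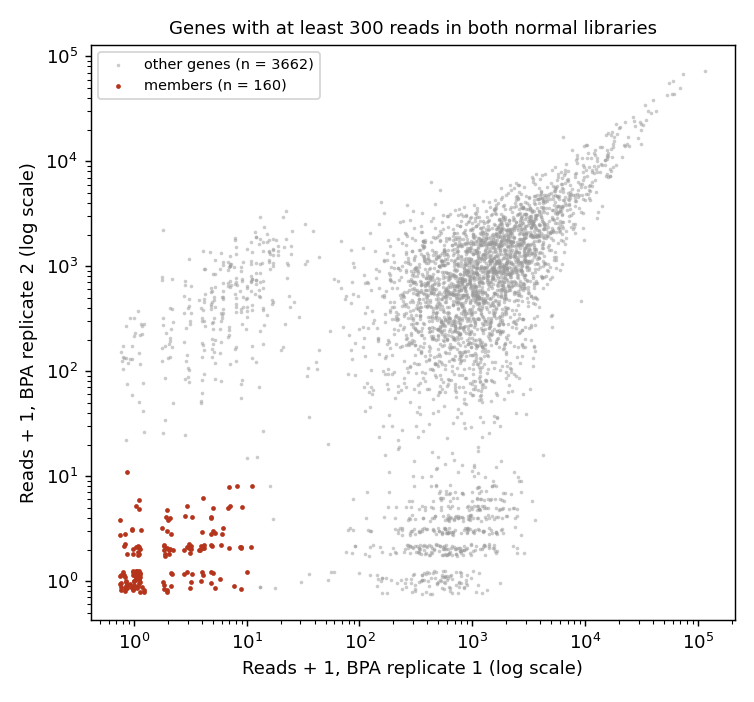
Reads plus 1 of the 3822 genes with at least 300 reads in both normal libraries, BPA replicate 1 against BPA replicate 2 on log scales, with a small seeded jitter. The 160 members form the lower left block, while 118 genes low in replicate 1 and 405 low in replicate 2 had at least 300 reads in the other library.

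By the quasi-likelihood test of edgeR, adjusted after Benjamini and Hochberg, BPA differed from normal in 0 of 8645 tested genes (0.0%), members included, while 833 genes had an unadjusted p under 0.05. DESeq2 called 264 genes (3.24%), of which 219 were lower in BPA (2.69%), and 130 members were among these. The members were chosen on the same contrast, so nothing is read from these counts. At the normal limit the last genes inside were Ankra2 with 301 and 356 reads, Dpysl2 with 447 and 301, Shroom3 with 301 in normal replicate 2, Clk2 with 529 and 301 and Stk39 with 437 and 302. The first genes outside were Arl6 with 297 and 361 reads, Foxc1 with 683 and 297, Enpp5 with 480 and 296, Pigq with 296 and 608 and Tut7 with 417 and 295. At the BPA limit Mtch2 (10 and 7 reads), 4930579G24Rik (0 and 10), Abhd13 (10 and 1), Pdk3 (9 and 0) and Runx1t1 (8 and 0) lay inside. Adcyap1r1 and Ets1 (12 and 0 each), Mapk1ip1l (11 and 14), Adk (9 and 14) and Ifi202b (15 and 7) lay just outside.

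Regulators of transcription and chromatin numbered 29 in a grouping by known roles, which was made after the member names were seen and has no background share. The lists used for shares match gene symbols by pattern and are incomplete, so each count is of the symbols matched and not of a whole gene class. Among C2H2 zinc finger genes, a family of DNA-binding proteins that often repress transcription, 7 of 58 with at least 300 reads in both normal libraries were members (12.1%, beside 4.19% over all such genes). Zfp120 had 624 and 494 normal reads against none in BPA. Zfp948 had 430 and 521 against 8 and 1, and Zfp280c 308 and 586 against 8 and 1. Of 50 genes matched by the list of other transcription factor families 1 was a member (2.0%), the forkhead gene Foxf2. That list does not match the transcription factor genes Runx1, Fli1, Rara and Tgif1, which are members too. Of 60 chromatin enzymes and remodelers 3 were members (5.0%). These were Kmt2c, a histone H3 lysine 4 methyltransferase gene, with 571 and 925 against 1 and 0 reads, the PARP-regulated remodeler gene Chd1l with 562 and 495 against 0 and 0, and the acetyltransferase gene Kat2a with 658 and 395 against 0 and 1. The group also held the hematopoietic regulators Runx1 and Fli1, the retinoic acid receptor gene Rara and Asf1a, a chaperone of histones H3 and H4.

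The protein kinase list also held 7 members, of 66 (10.6%). Besides Stk3, Map3k2, which acts upstream of JNK and ERK5, had 919 and 336 reads against 0 and 0. Cdk16, a kinase activated by cyclin Y, had 353 and 696 against 2 and 1. Cdk2, Clk2, Prkca and Stk39 completed the list, which does not match the symbol of the member Chek2, a kinase gene as well. Of 38 genes matched by the protein phosphatase list 3 were members (7.89%), Ptpn21, the catalytic subunit gene Ppp6c (801 and 341 against 0 and 0 reads) and Ppp2r5e, a regulatory subunit of PP2A (421 and 556 against 0 and 0). The phosphatase genes Phlpp2 and Cdc25c are members that this list does not match. Small GTPases of the Ras family were represented by Rap1a and Rap2c, and calcium entry by Stim1, the calcium sensor of the endoplasmic reticulum.

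Mitochondrial ribosomal proteins had the highest share of any list with at least 10 genes, 4 of 14 (28.6%). After Mrpl24 these were Mrpl9 with 996 and 375 normal reads against none in BPA, Mrpl1 with 667 and 359 against 1 and 0, and Mrps2 with 476 and 426 against 0 and 0. Of 58 cytosolic ribosomal protein genes only Rps18 was a member, with 589 and 526 reads against 1 and 0. Ribosomal protein genes have many near-identical pseudogenes, so this count is uncertain, as is that of the pseudogene Cdv3-ps (404 and 319 against 0 and 0).

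Genes of the centrosome and cilium gave 3 of 26 (11.5%). Haus3, of the augmin complex that branches spindle microtubules, had 796 and 784 reads against 0 and 0. The centrosome scaffold gene Cep192 had 927 and 624 against 0 and 0, and Ift74, of intraflagellar transport, 947 and 422 against 0 and 4. The cell cycle list gave 2 of 42 (4.76%), Cdc6, which loads the replicative helicase, and Cdc25c, a phosphatase that activates mitotic CDK1. The checkpoint kinase gene Chek2 had 312 and 784 reads against 3 and 1.

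In the ubiquitin system 3 of 75 genes matched by the list of conjugating enzymes and ligases (4.0%) were members. These were Rnf13 (955 and 462 against 1 and 1 reads), the giant ligase gene Herc1 (686 and 586 against 0 and 0) and the E2 enzyme gene Ube2e2 (384 and 742 against 5 and 2). The list does not match the ligase genes Cbl (783 and 459 against 1 and 3 reads) and Siah1a (648 and 742 against 1 and 1), which are members too. The deubiquitinase list gave 3 of 32 (9.38%), Usp45 (529 and 464 against 0 and 0 reads), Usp37 (309 and 329 against 1 and 0) and Usp6nl (374 and 429 against 3 and 1). Despite its symbol Usp6nl encodes a GTPase-activating protein for Rab5 and no deubiquitinase. Of 26 TMEM genes 3 were members (11.5%), Tmem50b, Tmem87a (854 and 540 against 6 and 4 reads) and Tmem131 (325 and 348 against 0 and 0).

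Other lists had fewer members than 3 or none. The symbol lists with no member held 42 translation initiation and elongation factors, 34 receptors and ligands of major signalling pathways, 28 nuclear pore and transport genes, 25 proteasome subunits, 25 RNA helicases, 22 RNA decay and poly(A) factors, 15 glycosylation enzymes, 14 aminoacyl-tRNA synthetases and 14 RNA modification enzymes. They do not match the receptor genes Ryk and Eda2r or the export factor gene Rae1, which are members. Of 5 autophagy genes with enough normal reads, counted without Map1lc3b, Ulk2 and Rb1cc1, none was a member. Those left-out autophagy genes met both limits, so this is not a share of all autophagy genes. No member was found in the marker lists of Leydig, Sertoli, germ, macrophage or smooth muscle and endothelial cells, of which few genes have a row in the table used here. Acta2, the smooth muscle actin gene, had 80 and 352 normal reads against 498 and 1270 in BPA. Of the macrophage markers Cd68 had 0 and 59 against 174 and 436. Cd14 had 0 and 92 against 7 and 0, and Lyz2 126 and 0 against 1 and 0. The Sertoli marker Clu had 221 and 1 against 335 and 205, and Dhh 135 and 0 against 0 and 0. Wt1 had 1563 and 2307 against 1952 and 516, and the germ cell marker Stra8 0 and 0 against 0 and 30. These are unscaled counts with no share over all genes beside them. The part of these levels in the results was not tested. Members came from the lower end of the counts and the lists differ in read level, the part of which in these shares was not tested. In the grouping by known roles, 17 members were kinases, phosphatases, small GTPases or receptors, 16 acted in metabolism and mitochondria, 14 in membrane traffic and lysosomes, 11 in RNA processing and export and 11 in the cell cycle, DNA damage response, centrosome or cilium. The cytoskeleton, adhesion and matrix had 10, the ubiquitin and COP9 systems 9, ribosomes 5, and 7 were noncoding, pseudogenes or unnamed. The remaining 31 were assigned to none of these 10 roles.

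RNA of the members was looked for in the m6A IP of BPA cells, which the rule did not use. Of the 160 members 30 (18.8%) had a peak in the authors' table, with 33 peaks in all, and the other 130 had none there. Of the other 3662 genes with at least 300 reads in both normal libraries, 1542 (42.1%) had a peak. The share with a peak rises with read level. From 300 to under 400 reads in the lower normal library, 14 of 81 members and 20.25% of the other genes had a peak. From 400 to under 500 reads, 8 of 47 members and 26.51% of the other genes had one. From 500 to under 700 reads it was 7 of 23 members and 31.65% of the others. From 700 to under 1000 reads it was 1 of 8 members and 42.49% of the others. Stk3, the 1 member from 1000 to under 2000 reads, had no peak, beside 51.89% of the others with one. The table lists differential peaks only, so a gene without one may still carry m6A. Only Naa35 of the 30 members with a peak (3.33%) was at 0 reads in both BPA libraries, beside 53 of the 130 without a peak (40.8%).

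All 33 member peaks had reads in the BPA IP, between 317 and 2332 per peak with a median of 1040. In the authors' scaled values (RPM), the BPA IP ranged from 81.1 to 597 with a median of 266. Most of the total behind each RPM column lies in the listed peaks, so RPM values are shares of that total. The BPA input at the same peaks was at most 9.78 RPM in 32 of 33, with a median of 3.67 RPM over all. That it is low follows from the rule, which limits the BPA reads of these genes, and is no separate result. Reads at the peaks assigned to these genes were thus sequenced from BPA cells in the IP. Whether they came from RNA of these genes or of others with the same sequence or place was not tested. At least 10 BPA IP reads were also found in 88.7% of the 3294 peaks of other genes (88.8% of all peaks), and in 87.3% of the 1531 of those with a BPA input of at most 10 RPM. The count of members is to be read against these shares, and the table lists only peaks called differential. The BPA IP was under 1 RPM in 0 of the 33 member peaks and in 12.5% of those 1531. Each IP value is 1 pooled value, so there is no replicate spread and no test.

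**Figure D4:**
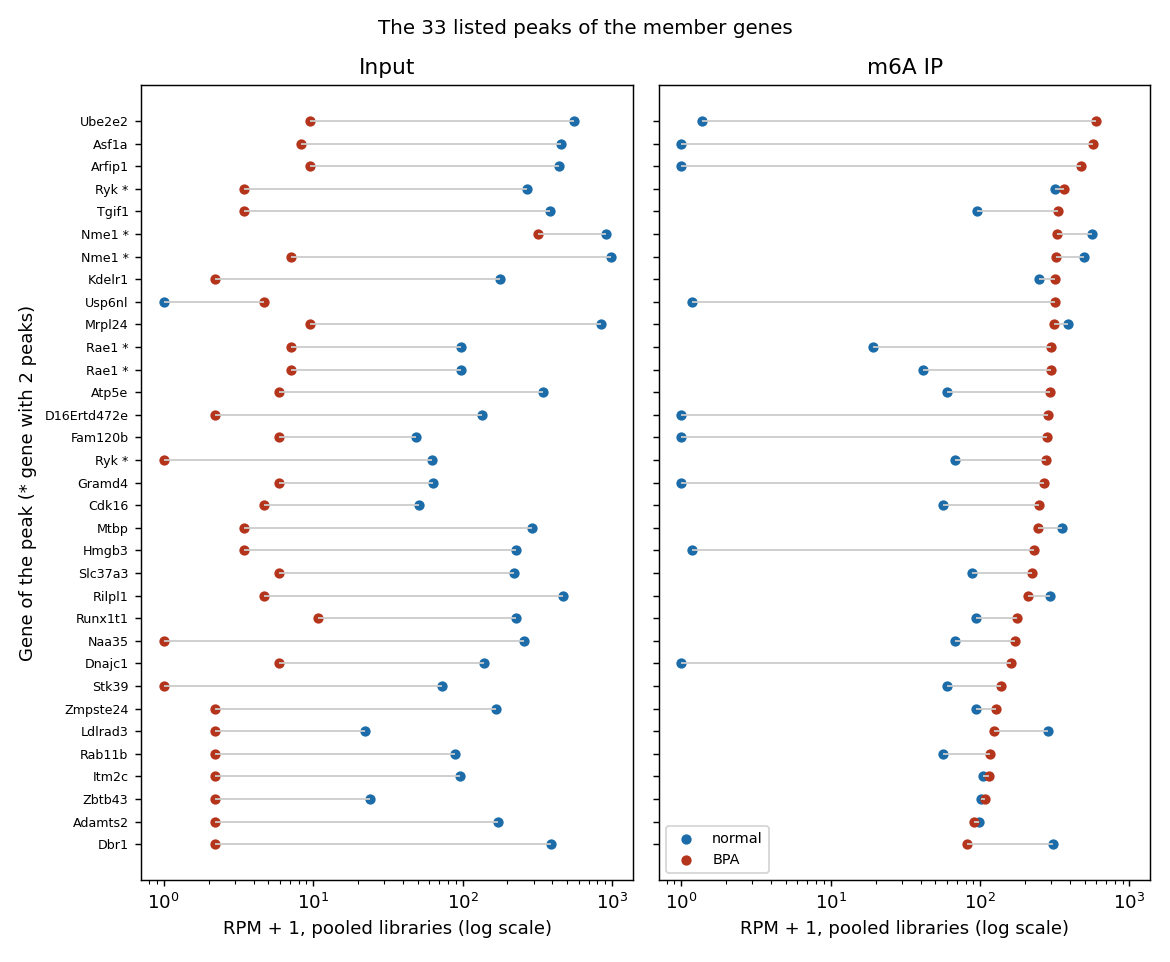
RPM plus 1 on a log scale for the 33 member peaks in the input (left) and the m6A IP (right), with normal cells in blue and BPA cells in red, 1 pooled value each, joined by a line and sorted by BPA IP. In the input the BPA point lies at 9.78 RPM or less in all peaks but 1 of Nme1, which follows from the choice of members. In the IP all BPA points lie at 81.1 RPM or more.

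The BPA IP was above the normal IP in 25 of the 33 member peaks (75.8%), beside 53.9% of the peaks of other genes and 58.7% of those with a BPA input of at most 10 RPM. With 1 RPM added, the log2 ratio of BPA IP to normal IP had a median of 1.33 over the member peaks, 0.17 over the peaks of other genes and 0.48 over those with low BPA input. It was 1 or more in 19 member peaks, -1 or less in 2 (Dbr1 and Ldlrad3), and between these in 12. Much of this came from 9 peaks with a normal IP under 1 RPM. They made up 27.3% of the member peaks, 7.35% of the peaks of other genes and 10.2% of those with low BPA input. Over the other 24 member peaks the median was 0.40, and 16 were higher in BPA. With the same limit of 1 RPM on the normal IP, the low-input peaks of other genes had a median of 0.19. The authors' deposited table gives a log2 fold change of IP over input above 0 for all 33 member peaks and for 68.4% of the others, a direction that the choice of genes with low BPA input favours.

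In 8 of these 9 peaks the normal input was 47.5 to 560 RPM, beside a median of 167 RPM in peaks of other genes. The BPA IP was 161 to 597 RPM, the normal IP at most 0.37 RPM and the BPA input at most 8.56 RPM. The rule favours a low BPA input, and the 9 were picked for a low normal IP. All 9 had over 100 RPM in the BPA IP. So did 154 of the 156 peaks of other genes with low BPA input and normal IP under 1 RPM. A high BPA IP in such peaks is thus not particular to the members. The peak of Ube2e2, which encodes a ubiquitin-conjugating enzyme, lies at chr14:3895744-3895793, read as GRCm39, the mouse build in the submitters' processing notes, as are the peaks that follow. It had 560 RPM in the normal input and 0.37 RPM in the normal IP, against 8.56 RPM in the BPA input and 597 RPM in the BPA IP. The peak of Asf1a at chr10:53483959-53484033 had 457 and 0 RPM in normal input and IP, against 7.33 and 573 RPM in BPA. That of Arfip1, an Arf-binding protein of the Golgi, at chr3:84403600-84403624 had 444 and 0 RPM against 8.56 and 476 RPM. By counting error alone the IP of Asf1a was at least 1032-fold and that of Arfip1 at least 857-fold higher in BPA, against a floor of 3 counts. Hmgb3, an HMG-box chromatin protein gene, D16Ertd472e, Dnajc1, Fam120b and Gramd4 had the same arrangement, with 47.5 to 226 RPM in the normal input, at most 0.19 RPM in the normal IP and 161 to 286 RPM in the BPA IP. Usp6nl differed, since its peak had 0 RPM in the normal input and 0.19 RPM in the normal IP, against 3.67 and 314 RPM in BPA, although the gene had 374 and 429 reads in the normal libraries.

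Promoters are printed for the 4 members whose single peaks had the most BPA IP reads, as examples of their start sites. The neighbouring peaks of Nme1, with 1266 and 1265 BPA IP reads, were not summed. Their normal input reads, 1549 and 1667, together exceed the 1978 normal reads of the gene, so they may share reads. The windows run from 250 bases before to 50 bases after a gene start in RefSeq, build GRCm38.p6. They lie at chr14:18893722-18894021 (minus strand) for Ube2e2, chr10:53596711-53597010 (plus strand) for Asf1a, chr3:84582576-84582875 (minus strand) for Arfip1 and chr9:102834670-102834969 (plus strand) for Ryk. Ube2e2 has 2 windows in the table and the first is shown. Capitals mark matches, on either strand, to the GC box GGGCGG, the CCAAT box CCAAT, the ETS core CCGGAAG or the TATA box TATAAA.
Ube2e2: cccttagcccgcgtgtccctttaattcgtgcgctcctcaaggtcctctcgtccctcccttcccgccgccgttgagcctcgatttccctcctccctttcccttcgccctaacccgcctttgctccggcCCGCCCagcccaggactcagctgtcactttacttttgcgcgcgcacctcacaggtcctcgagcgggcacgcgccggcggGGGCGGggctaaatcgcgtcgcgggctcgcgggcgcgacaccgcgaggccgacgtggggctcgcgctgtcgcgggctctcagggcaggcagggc
Asf1a: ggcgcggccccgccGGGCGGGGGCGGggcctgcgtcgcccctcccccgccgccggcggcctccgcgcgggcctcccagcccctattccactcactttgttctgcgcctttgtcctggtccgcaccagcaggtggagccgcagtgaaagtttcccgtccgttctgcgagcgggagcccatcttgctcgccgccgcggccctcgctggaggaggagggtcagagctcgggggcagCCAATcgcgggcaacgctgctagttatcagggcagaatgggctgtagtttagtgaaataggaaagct
Arfip1: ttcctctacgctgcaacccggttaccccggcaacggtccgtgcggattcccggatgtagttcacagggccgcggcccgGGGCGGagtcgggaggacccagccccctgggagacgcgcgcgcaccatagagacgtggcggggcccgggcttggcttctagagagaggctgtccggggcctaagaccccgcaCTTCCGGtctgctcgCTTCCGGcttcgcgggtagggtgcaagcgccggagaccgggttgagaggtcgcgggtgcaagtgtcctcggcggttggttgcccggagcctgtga
Ryk: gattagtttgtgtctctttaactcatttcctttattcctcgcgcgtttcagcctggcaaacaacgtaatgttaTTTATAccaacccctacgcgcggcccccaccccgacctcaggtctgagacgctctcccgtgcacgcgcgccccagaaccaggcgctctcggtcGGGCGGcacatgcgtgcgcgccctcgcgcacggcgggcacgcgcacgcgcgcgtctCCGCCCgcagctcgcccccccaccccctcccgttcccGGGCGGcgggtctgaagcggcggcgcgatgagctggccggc
All 4 windows hold a GC box, and the TATA letters were found in that of Ryk alone. Of 165 windows of the 127 members in the table, 66.1% held the GC box, beside 69.7% of 3678 windows of the other genes with at least 300 reads in both normal libraries and 35.7% of all 32851 windows. The CCAAT box was in 32.7% against 38.1% of the other genes and 37.4% of all windows, the ETS core in 13.9% against 19.2% and 8.86%, and the TATA box in 3.03% against 6.53% and 13.6%. The E-box CACGTG was in 12.1%, 10.9% and 7.15%, and the CRE TGACGTCA in 0.606%, 2.99% and 1.79%. The median GC content was 61.3% in the member windows and 62.7% in those of the other genes. These are descriptions of letters and no statement about binding.

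Among the 24 peaks seen in both IPs, levels were often close. Ryk, a Wnt receptor gene, had 2 peaks. That at chr9:102784321-102784420 had 314 RPM in the normal IP and 365 RPM in the BPA IP, a ratio of 1.16 with an exact 95% counting interval of 1.08 to 1.25. The input there was 268 RPM in normal cells and 2.44 RPM in BPA. The second Ryk peak, at chr9:102784446-102784495, had 67.4 and 275 RPM in the normal and BPA IP, a ratio of 4.09 (3.63 to 4.61), with 61.0 and 0 RPM in the input. The 2 peaks of Ryk thus differed in their IP ratio, while the BPA input was low at both. Kdelr1, which returns proteins to the endoplasmic reticulum, had 248 and 319 RPM in the normal and BPA IP, and 176 and 1.22 RPM in the input. Itm2c had 104 and 113 RPM in the IP against 94.5 and 1.22 RPM in the input, and Zbtb43 100.3 and 107 RPM against 22.9 and 1.22 RPM.

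Other peaks had unequal values in the IPs. Tgif1, a TALE homeobox repressor gene, had 94.96 RPM in the normal IP and 332 RPM in the BPA IP at chr17:71151225-71151399, a ratio of 3.495 (counting interval 3.15 to 3.88). The 2 peaks of Rae1, an mRNA export factor, had 40.5 and 18.3 RPM in the normal IP and 299.6 RPM each in the BPA IP. Their BPA and input values are identical, so they may share reads and are not independent. Cdk16 had 55.9 and 248 RPM, and Atp5e, the epsilon subunit gene of ATP synthase, 59.2 and 293 RPM. In the other direction Dbr1, the lariat debranching enzyme gene, had 307 and 81.1 RPM at chr9:99466042-99466116, a ratio of 0.264 (0.233 to 0.298), and Ldlrad3 285 and 124 RPM, a ratio of 0.435 (0.392 to 0.482). Mrpl24 had 389 and 310 RPM, Mtbp, an MDM2-binding protein gene, 353 and 245 RPM, and Rilpl1 292 and 209 RPM. With 1 pooled value per condition, none of these differences can be set against replicate spread.

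For the 30 members with a peak, the share of the gene's reads inside it could be looked at. The peaks were 25 to 175 bases wide (median 50), beside a median of 75 bases for peaks of other genes, and 1 of 33 had 2 blocks, beside 19.8% of the others. In the normal input the 75-base peak of Asf1a held 779 reads, and the whole gene had 779 reads in the 2 normal RNA-seq libraries. The 50-base peak of Ube2e2 held 954 of 1126 reads, the 25-base peak of Arfip1 757 of 992, the 25-base peak of Mrpl24 1442 of 1885 and the 125-base peak of Rilpl1 795 of 987. For 8 of the 33 member peaks, in 7 genes, the peak held over 50% of the normal reads of its gene, with a median of 24.7% over all 33. Of 2700 peaks of other genes with at least 600 normal reads, 5.19% held over 50% and the median was 8.0%. These genes were not matched to the members in read level, the part of which in this difference was not tested. How many separate RNA fragments lie behind reads stacked in so narrow a window, and so behind the counts that chose such genes, was not tested.

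The BPA reads of these genes were compared with their peaks in the same way. The BPA input reads in the peak did not exceed the BPA reads of the whole gene in 32 of 33 peaks. They equalled them in 15, of which Naa35 was at 0 in both, with all 7 reads of Ube2e2, 6 of Asf1a, 7 of Arfip1 and 8 of Runx1t1. Across those 32 peaks the BPA input reads had a Spearman correlation of 0.582 with the BPA IP reads, 0.419 with the normal input reads and -0.256 with the normal IP reads. The peaks share libraries, and these are small counts, so the values are a description. The exception was Nme1. Its 25-base peak at chr11:93850255-93850279 had 262 BPA input reads (320 RPM), while the gene had 4 and 1 reads in the count table. A second peak 25 bases away, at chr11:93850130-93850229, had 5. RNA at the first peak was therefore present in the BPA input, and the low count of Nme1 does not show that its RNA was absent. The rule for reads that overlap several genes was not given in the sources used here.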

How the data were processed

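Whole reads per Ensembl gene were deposited by the authors as counts. The submitters' processing notes list DESeq2 1.38.3, fastp 0.20.1, featureCounts 2.0.1 and HISAT2 2.2.1 with no role or order, and name both a mouse build, GRCm39, and a human one. Strand and multi-mapping settings were not given in the sources used here. Column names of the count table show condition and replicate only. They were read as RNA-seq, because featureCounts is listed and RNA-seq is the stated input. Over 3179 peaks whose gene is in the table, input reads did not exceed the reads of the gene in 94.8% (normal) and 95.5% (BPA), against 77.0% and 73.1% for the IP.

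RPM values were deposited by the authors, 1 pooled value per condition for IP and input. They were whole multiples of a step within 0.1 read in 100.0% of peaks, giving totals of 5402182, 1703692, 3908372 and 818212 reads for normal IP, normal input, BPA IP and BPA input. The input totals are far below the RNA-seq library totals given above. Summed over the listed peaks, RPM came to 826089, 884773, 877723 and 894159 in the same order. The input RPM is thus scaled to a part of each library. In the IP columns too, the listed peaks make up most of the total behind the RPM. Totals of the IP libraries are not among the values used here, so whether the IP RPM covers whole libraries was not tested. The IP ratios, their intervals and the bounds on the IP rest on the deposited scale. They compare shares of these totals and not amounts of RNA. With 1 column per condition no count test could be run on the RPM values. Log2 fold change, p-value and false discovery rate per peak are the authors' deposited values (largest false discovery rate 0.0147). Peak starts were shifted to 1-based coordinates and read as GRCm39. What the annotation holds at each peak is not analysed here.

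edgeR 4.0.16 in R 4.3.3 used TMM, filterByExpr (minimum count 10, minimum total 15), robust quasi-likelihood F tests and Benjamini-Hochberg adjustment at 0.05, with no block. DESeq2 1.42.0, leaving out each library, other limits, pseudocounts and peak filters were alternatives. On simulated BPA and normal counts with a dispersion of 0.1, edgeR recovered 98 of 100 genes changed 64-fold and 97 of 100 changed 8-fold among 8631, with 6 false calls. At 1.91, the dispersion of these libraries, it recovered 0 of 100 for each among 8398. CPM used TMM-scaled libraries. Exact 95% intervals and the floor of 3 counts describe counting error alone, because reads without molecular identifiers may be copies of 1 molecule. If the libraries of a group are not separate cultures, p-values measure technical spread.

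The members and lists were chosen with earlier results of these data known. Named genes were the 15 members with most normal CPM, the 10 with most BPA IP reads (none had 0), the 3 with most normal CPM of each list with 3 or more members, and the 5 on each side of each limit. Others were named for their role or peak after their values were seen, and so was the grouping by role. The pattern for cytosolic ribosomal proteins was corrected after the table was read, because it had left out the small subunit. Counts are not scaled for gene length, so levels are not compared between genes.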

Additional observations from a re-analysis of the deposited data

How the results depend on the processing

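The number of members depended on the limits. It was 313 with at least 200 and 32 with at least 500 reads in both normal libraries, 145 and 167 with 5 or 20 as the BPA maximum, and 120 with limits on reads scaled by TMM library size. Leaving out 1 library gave 286 to 621 members without normal replicate 1 or 2, and 378 to 656 without BPA replicate 2 or 1, because fewer libraries had to meet the limits. edgeR called 0 genes with DESeq2 size factors, with no filter on low counts and with replicate number as a block. DESeq2 called 264, and leaving out 1 library in edgeR gave 0 to 1 calls, the 1 without normal replicate 1; the cause was not tested. The numbers do not pair the libraries by any label. The deviations of the replicates 1 had a correlation of -0.001 between the conditions, and the block left 0 calls. All 33 member peaks kept at least 50 BPA IP reads, and 32 remained at an authors' false discovery rate under 0.01. The median log2 IP ratio was 1.23 with 10 RPM added and 0.36 over the 23 member peaks with at least 100 normal IP reads, where fewer peaks enter. Over low-input peaks of other genes it was 0.43 and 0.18 under those settings. With the 2 IP libraries of each condition pooled into 1 value, depth and library spread of the peak values cannot be told apart.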
